A study of Mus musculus with 9 samples.

Results

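The 10 genes described here code for molecular chaperones and co-chaperones that heat-shock factor 1 is known to induce: Dnajb1, Dnaja1, Hspa1a, Hspa1b, Hspa8, Hsph1, Bag3, Hspb1, Hsp90aa1 and Serpinh1. They were chosen by gene symbol, out of 27339 genes in a table of RNA sequencing of the mouse substantia nigra pars compacta, and all 10 were among the 14949 genes tested. The choice was made with earlier results of these data known. The difference between the MPTP and Ctrl libraries is assumed to be the one in view, so it is given below as a description. The other comparisons may have been in view too. The near-identical copies Hspa1a and Hspa1b were also summed. The 9 libraries fell into 3 groups of 3. The first came from mice given MPTP together with MCT-KD, a ketogenic diet based on medium-chain triglycerides, the second from mice given MPTP, and the third from Ctrl mice. MPTP is a toxin whose oxidised product enters dopamine neurons and blocks complex I of the mitochondria. No group with the diet alone was used here, so the diet could be compared only on top of the toxin. The labels give no strain, sex, age, dose or time of dissection. They also do not tie each library to its own animal, and p-values therefore cover the spread between libraries, which may be technical.

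In unstressed cells heat-shock factor 1 is held inactive by chaperones. When unfolded proteins occupy those chaperones, the freed factor binds heat-shock elements, inverted repeats of the letters GAA, and switches on the genes for the chaperones themselves. Hsp70 proteins bind unfolded stretches in a cycle driven by ATP, Hsp40 proteins deliver the substrates, and nucleotide exchange factors release them. In dopamine neurons this machinery is known for handling alpha-synuclein, the protein that aggregates in Parkinson's disease.

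The promoters below are the RefSeq windows of build GRCm38.p6, from 250 bases before to 50 bases after the annotated start, 5′ to 3′ on the strand of the gene. Capitals mark matches to heat-shock elements of 2 units (TTCNNGAA or GAANNTTC) or 3 units (GAANNTTCNNGAA), searched on both strands. The longer motif contains both shorter ones, so those matches overlap. The Hspa1a and Hspa1b windows are shown because they are nearly the same, Hspb1 because it holds a pair of matches, Hsph1 because it holds the longer motif, and Dnajb1 because it was called lower in MPTP than in Ctrl.
Hspa1a, chr17:34972107-34972406, minus strand: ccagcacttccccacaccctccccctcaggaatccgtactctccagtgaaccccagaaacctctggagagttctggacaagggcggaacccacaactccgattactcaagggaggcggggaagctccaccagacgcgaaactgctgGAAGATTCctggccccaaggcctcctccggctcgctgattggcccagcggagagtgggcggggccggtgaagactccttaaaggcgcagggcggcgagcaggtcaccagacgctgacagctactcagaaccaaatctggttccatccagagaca
Hspa1b, chr17:34959189-34959488, minus strand: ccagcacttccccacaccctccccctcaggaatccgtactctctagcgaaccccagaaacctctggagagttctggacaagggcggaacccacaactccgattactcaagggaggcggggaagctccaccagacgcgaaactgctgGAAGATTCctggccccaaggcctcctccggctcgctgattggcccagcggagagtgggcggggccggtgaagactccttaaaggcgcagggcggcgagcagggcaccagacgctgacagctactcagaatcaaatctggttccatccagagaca
Hspb1, chr5:135887669-135887968, plus strand: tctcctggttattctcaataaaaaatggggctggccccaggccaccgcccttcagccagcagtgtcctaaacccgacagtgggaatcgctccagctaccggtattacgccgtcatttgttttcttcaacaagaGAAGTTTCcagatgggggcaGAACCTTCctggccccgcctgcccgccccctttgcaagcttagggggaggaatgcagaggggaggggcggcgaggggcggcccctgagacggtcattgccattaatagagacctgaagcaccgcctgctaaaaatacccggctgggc
Hsph1, chr5:149636287-149636586, minus strand: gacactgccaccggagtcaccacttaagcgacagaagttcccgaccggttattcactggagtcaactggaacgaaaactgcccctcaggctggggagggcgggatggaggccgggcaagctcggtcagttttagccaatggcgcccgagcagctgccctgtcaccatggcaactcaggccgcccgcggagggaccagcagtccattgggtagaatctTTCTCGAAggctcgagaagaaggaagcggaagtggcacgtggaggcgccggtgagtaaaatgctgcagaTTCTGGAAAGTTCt
Dnajb1, chr8:83607925-83608224, plus strand: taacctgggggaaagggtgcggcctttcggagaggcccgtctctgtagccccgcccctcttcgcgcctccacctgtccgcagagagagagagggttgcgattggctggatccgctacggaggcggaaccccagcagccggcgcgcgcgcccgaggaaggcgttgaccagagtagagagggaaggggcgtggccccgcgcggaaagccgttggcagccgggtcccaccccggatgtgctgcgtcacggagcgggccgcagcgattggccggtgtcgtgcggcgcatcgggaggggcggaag

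The Hspa1a and Hspa1b windows differed at 4 of 300 positions (98.7% identical), and each held GAAGATTC 104 bases before the start. Hspb1 held GAAGTTTC and GAACCTTC, 117 and 97 bases before the start. Hsph1 held TTCTCGAA before its start and TTCTGGAAAGTTC, the longer motif read from the other strand, 36 bases after it. The table held windows for 8 of the 10 genes, and 6 of these 8 had a match to a motif of 2 units in at least 1 window, as did 17.0% of the 27025 genes with a window and 15.1% of all 32851 windows. The longer motif was in the windows of 1 of the 8, against 0.662% of genes and 0.603% of windows. Bag3 held GAAGTTTC 42 bases after its start, and Dnaja1 held GAAAATTC in 1 of its 3 windows. Neither of the Dnajb1 windows and not the Serpinh1 window held a match, which says only that these letters are not in these windows. A match is a description of the sequence, and binding was not measured.

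A library stood apart from the rest. Ctrl 3 had a summed level of 924 FPKM (fragments per kilobase and per M fragments mapped, where M stands for mega) over 8 choroid plexus markers, against 14.0 to 66.8 FPKM in the other 8 libraries. Total counts ran from 33.2 to 40 M per library. Of 10 markers of dopamine neurons, all were detected in every library, and their summed level was 241 to 293 FPKM in MPTP + MCT-KD, 253 to 288 FPKM in MPTP and 302 to 350 FPKM in Ctrl. Their log2 fold changes were below 0 for all 10, both in MPTP against Ctrl and in MPTP + MCT-KD against Ctrl, and their part in the chaperone results was not tested. In bulk tissue fewer cells of a type and less RNA per cell cannot be told apart. Summed markers of neurons of any kind lay between 1739 and 1920 FPKM throughout, with no separation of the groups. Summed glial markers were higher in every MPTP + MCT-KD than in every Ctrl library. For oligodendrocytes they ran from 4826 to 5349 against 3781 to 4612 FPKM. For microglia they ran from 87.2 to 89.9 against 75.3 to 82.9 FPKM, and for astrocytes from 398 to 442 against 372 to 388 FPKM. The MPTP sums overlapped both other groups in each case. By log2 fold change of MPTP + MCT-KD over Ctrl, all 6 oligodendrocyte markers were above 0 (median 0.25). So were 5 of 6 microglia markers (median 0.17) and 4 of 6 astrocyte markers (median 0.071), the other 2 astrocyte markers being below 0. Gfap had the highest astrocyte value (0.66), with means of 94.9 FPKM in MPTP + MCT-KD and 60.8 FPKM in Ctrl. None of these glial markers was called by edgeR. The part of glia in the chaperone results was not tested.

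Levels per transcript length spanned a ratio of 127 between the highest and lowest of the 10 genes, by the Ctrl means. Hspa8, the Hsp70 made at all times, was highest and ranked 21 among the 14949 genes, followed in Ctrl by Hsp90aa1, Hsph1, Dnaja1, Dnajb1, Hspb1, Serpinh1, Bag3 and last the inducible Hsp70 genes Hspa1b and Hspa1a. The Ctrl values of Bag3, Hspa1b and Hspa1a overlapped one another, and all other neighbours in the order were separate in Ctrl. Bag3 and Hspa1a overlapped in every group, whereas Hspa1b lay below Hspa1a in MPTP with no overlap. Hspb1 and Serpinh1 overlapped in MPTP.

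**Figure D1:**
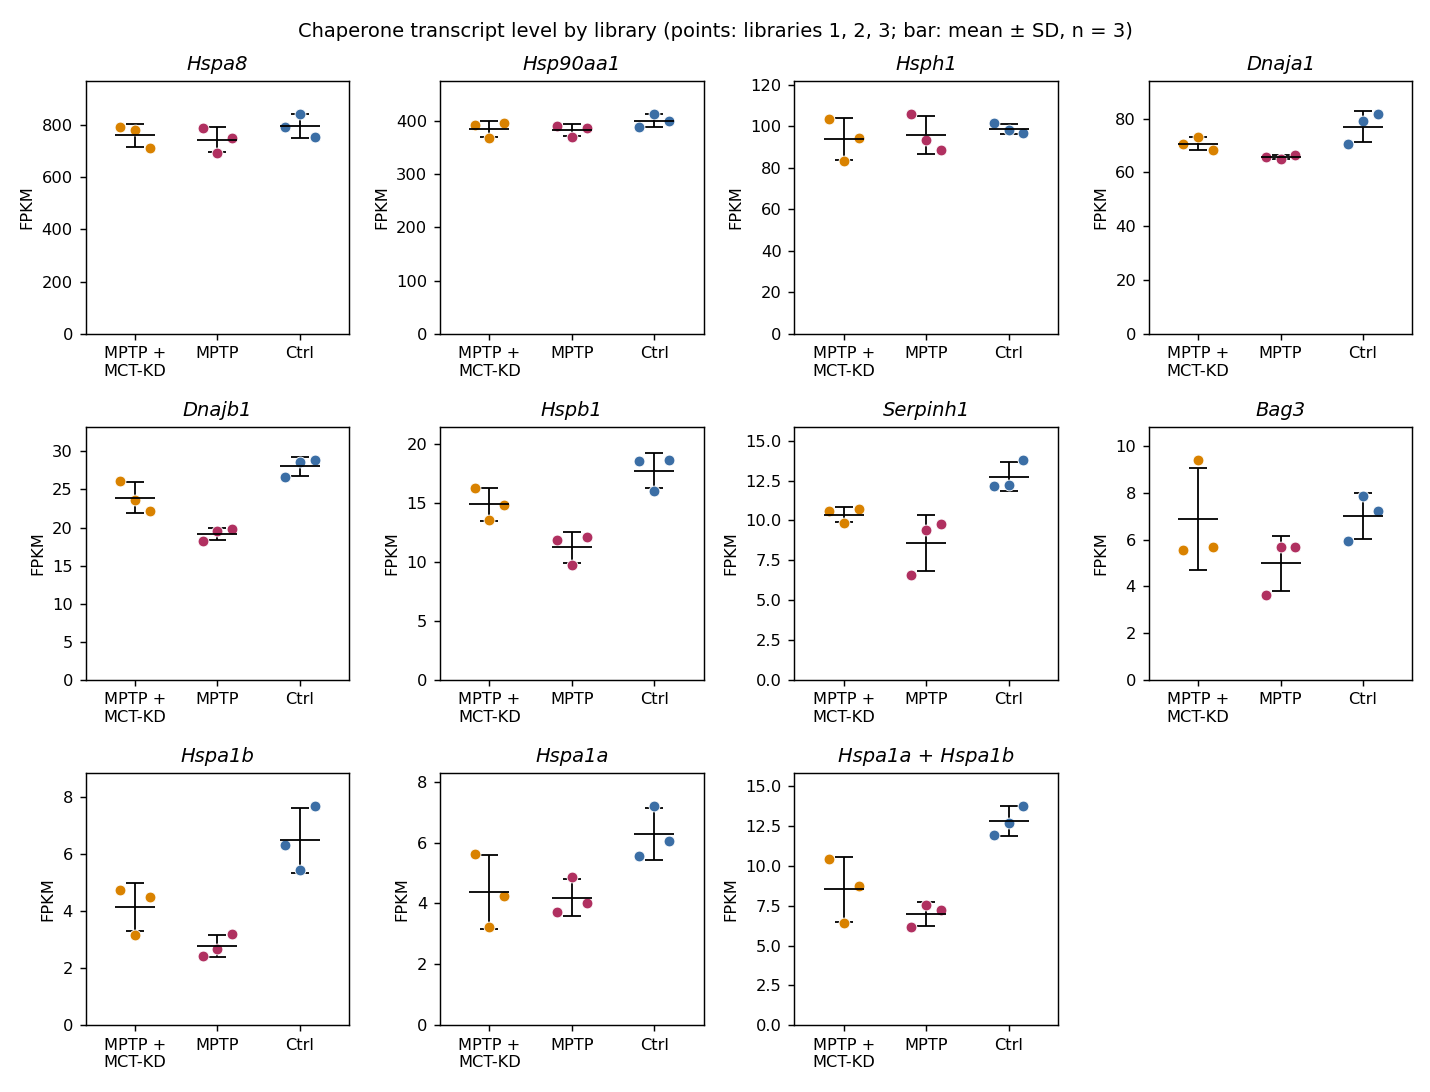
FPKM of each gene, and of Hspa1a and Hspa1b summed, in the 9 libraries, with 1 panel per gene in order of level, each with its own axis from 0. Points are libraries 1 to 3 from left to right, and bars are mean ± SD (n = 3). Dnajb1, Hspb1 and Serpinh1 in MPTP lie below both other groups, and the groups of Hspa8, Hsp90aa1 and Hsph1 overlap.

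Among the Hsp40 genes, Dnajb1 codes for the stress-inducible partner that hands substrates to Hsp70 and starts its ATP cycle. Dnajb1 (ENSMUSG00000005483, chromosome 8, 83608193 to 83612653, GRCm38) stood at 26.1, 23.6 and 22.1 FPKM in MPTP + MCT-KD, 18.3, 19.5 and 19.8 FPKM in MPTP, and 26.7, 28.6 and 28.9 FPKM in Ctrl. No value of one group overlapped those of another: MPTP was lowest, Ctrl highest and MPTP + MCT-KD between them. The means were 23.9 ± 2.02 in MPTP + MCT-KD, 19.2 ± 0.795 in MPTP and 28.0 ± 1.21 FPKM in Ctrl (SD, n = 3 each). MPTP over Ctrl came to a log2 fold change of -0.55 (SE 0.0652), and to -0.54 without Ctrl 3. This contrast is assumed to be the one in view when the gene was chosen. MPTP + MCT-KD over MPTP came to 0.34 (95% interval 0.20 to 0.48), a ratio of 1.27, and edgeR's test across all genes did not call it (adjusted p = 0.469). DESeq2 did call it (adjusted p = 0.0134), in a fit that called 19 genes where edgeR called 0. MPTP + MCT-KD over Ctrl came to -0.21 (95% interval -0.35 to -0.073, edgeR adjusted p = 0.740).

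Dnaja1 codes for a more abundant Hsp40 that carries a farnesyl anchor and also works with Hsp70 in protein import and folding. Its FPKM were 70.5, 73.2 and 68.3 in MPTP + MCT-KD, 65.6, 64.9 and 66.6 in MPTP, and 70.5, 79.0 and 81.7 in Ctrl. The MPTP libraries lay below all others, and MPTP + MCT-KD overlapped Ctrl. The log2 fold changes on counts were -0.12 for MPTP over Ctrl, 0.12 for MPTP + MCT-KD over MPTP (95% interval 0.027 to 0.22, edgeR adjusted p = 0.625) and 0.0034 for MPTP + MCT-KD over Ctrl (95% interval -0.091 to 0.098, adjusted p = 0.993). Its FPKM and counts implied transcript lengths from 4163 to 4935 bases between libraries, a ratio of 1.19, against at most 1.05 for the other 9 genes, so the scales do not match for this gene. On log2 FPKM, limma put the differences at -0.23 for MPTP over Ctrl, 0.10 for MPTP + MCT-KD over MPTP and -0.12 for MPTP + MCT-KD over Ctrl.

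The inducible Hsp70 genes Hspa1a and Hspa1b lie next to each other on the minus strand of chromosome 17 (34969190 to 34972156 and 34956436 to 34959238, GRCm38), 9951 bases apart, and code for nearly the same protein. Hspa1b stood at 4.77, 3.19 and 4.50 FPKM in MPTP + MCT-KD, 2.45, 2.69 and 3.20 FPKM in MPTP, and 6.33, 5.44 and 7.71 FPKM in Ctrl. Ctrl lay above both other groups, and MPTP + MCT-KD 2 lay just inside the range of MPTP. Hspa1a stood at 5.63, 3.21 and 4.25 FPKM in MPTP + MCT-KD, 3.71, 4.87 and 4.01 FPKM in MPTP, and 5.56, 7.21 and 6.05 FPKM in Ctrl. The MPTP values were below all Ctrl values, while MPTP + MCT-KD spread over both. The log2 fold changes for MPTP over Ctrl were -1.23 (SE 0.167) for Hspa1b and -0.59 (SE 0.191) for Hspa1a. For MPTP + MCT-KD over MPTP they were 0.60 for Hspa1b (95% interval 0.24 to 0.96, edgeR adjusted p = 0.587) and 0.080 for Hspa1a (95% interval -0.35 to 0.51, adjusted p = 0.944). The difference between the fold changes of the copies was not tested.

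Reads of the copies can be exchanged: 49.9% of the windows of 100 bases of the Hspa1b transcript were found unchanged in Hspa1a, the longest shared stretch was 638 bases, and none were found in Hspa8. The split of counts moved between libraries of 1 group by more than counting error. Hspa1a took 55.6%, 51.6% and 50% of the counts of the pair in MPTP + MCT-KD, 61.6%, 65.7% and 57.0% in MPTP, and 48.2%, 58.4% and 45.4% in Ctrl. MPTP lay above every MPTP + MCT-KD library, and Ctrl 2 lay inside its range. The 95% Wilson intervals, which cover counting error only, ran from 55.9% to 60.9% in Ctrl 2 and from 42.8% to 47.9% in Ctrl 3.

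Summed, the pair stood at 10.4, 6.40 and 8.74 FPKM in MPTP + MCT-KD, 6.16, 7.56 and 7.21 FPKM in MPTP, and 11.9, 12.7 and 13.8 FPKM in Ctrl. Every library given MPTP, with or without the diet, lay below every Ctrl library, and MPTP + MCT-KD reached from within the MPTP range to above it. The log2 fold change of the sum was -0.87 for MPTP over Ctrl (SE 0.152), smaller than that of Hspa1b alone, and edgeR did not call the sum although it called Hspa1b. In MPTP + MCT-KD over MPTP the sum had a log2 fold change of 0.30 (95% interval -0.034 to 0.64, edgeR adjusted p = 0.667), which was 0.13 without MPTP + MCT-KD 1 and 0.48 without MPTP + MCT-KD 2. Over Ctrl, MPTP + MCT-KD had -0.57 (95% interval -0.90 to -0.23, edgeR adjusted p = 0.741).

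Hspa8 codes for the constitutive Hsp70 that carries most of the cell's routine folding and uncoats clathrin vesicles at synapses. It stood at 793, 778 and 709 FPKM in MPTP + MCT-KD, 787, 691 and 751 FPKM in MPTP, and 792, 841 and 752 FPKM in Ctrl, and the 3 groups overlapped. On counts, the log2 fold change for MPTP + MCT-KD over MPTP was 0.054 (95% interval -0.086 to 0.19, edgeR adjusted p = 0.874) and for MPTP over Ctrl -0.11. With 1 library left out they ran from 0.0084 to 0.11 and from -0.16 to -0.054. Set against Hspa8 within each library, the inducible pair reached 1.31%, 0.822% and 1.23% of its FPKM in MPTP + MCT-KD, 0.783%, 1.09% and 0.961% in MPTP, and 1.50%, 1.50% and 1.83% in Ctrl. The ratio was small in all 9 libraries, and every Ctrl value lay above every other.

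**Figure D2:**
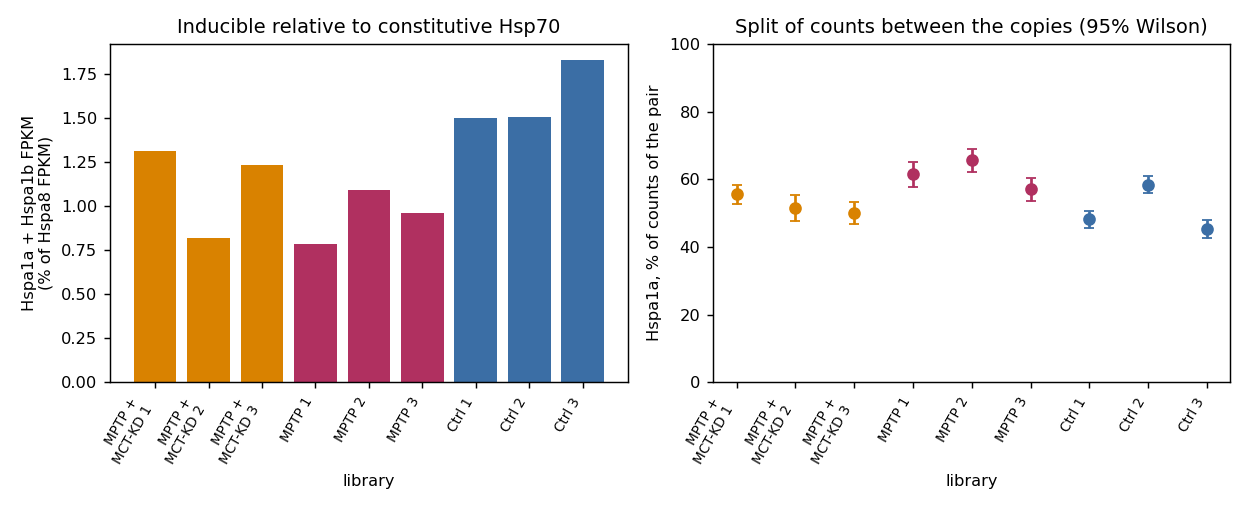
Left, summed FPKM of Hspa1a and Hspa1b as a percentage of Hspa8 FPKM in each library; right, Hspa1a as a percentage of the counts of the pair, with 95% Wilson intervals. The left bars run from 1.50% to 1.83% in Ctrl and stay at or under 1.31% in the other 6 libraries, and the right points run from 45.4% in Ctrl 3 to 65.7% in MPTP 2.

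Nucleotide exchange factors open Hsp70 so that ADP and the substrate leave it. Hsph1 codes for Hsp110, the exchange factor that also takes part in pulling aggregates apart. Its FPKM were 104, 83.4 and 94.4 in MPTP + MCT-KD, 106, 93.3 and 88.5 in MPTP, and 102, 98.1 and 97.0 in Ctrl. The groups overlapped, with Ctrl in the narrowest range, and the highest and lowest values came from an MPTP and an MPTP + MCT-KD library. Its log2 fold change was -0.014 for MPTP + MCT-KD over MPTP (95% interval -0.18 to 0.15, edgeR adjusted p = 0.979) and -0.071 for MPTP + MCT-KD over Ctrl (adjusted p = 0.905).

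Bag3 codes for the exchange factor that links Hsp70 to small heat-shock proteins and to autophagy of misfolded proteins. It stood at 5.54, 9.41 and 5.67 FPKM in MPTP + MCT-KD, 3.63, 5.66 and 5.66 FPKM in MPTP, and 5.93, 7.88 and 7.20 FPKM in Ctrl. MPTP lay below Ctrl, and MPTP + MCT-KD 2 was the highest of all 9 while its companions lay near MPTP. Its log2 fold change for MPTP + MCT-KD over MPTP was 0.49 (95% interval -0.065 to 1.04, edgeR adjusted p = 0.670), and 0.20 without MPTP + MCT-KD 2. MPTP over Ctrl gave -0.50, and -0.32 without MPTP 1, the lowest library.

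Hspb1 codes for the small heat-shock protein Hsp27, which holds unfolded proteins without using ATP and which in brain is known from astrocytes and vessels. It stood at 16.3, 13.5 and 14.8 FPKM in MPTP + MCT-KD, 11.8, 9.73 and 12.1 FPKM in MPTP, and 18.6, 16.0 and 18.6 FPKM in Ctrl. All MPTP libraries lay below all others, and MPTP + MCT-KD 1 alone of the diet libraries entered the Ctrl range. Its log2 fold change was -0.66 for MPTP over Ctrl (SE 0.119) and 0.43 for MPTP + MCT-KD over MPTP (95% interval 0.17 to 0.69, edgeR adjusted p = 0.587). In MPTP + MCT-KD over Ctrl it was -0.24 (95% interval -0.49 to 0.018, adjusted p = 0.753). Markers of mural cells, the contractile cells of vessel walls, summed to 62.2, 84.7 and 75.3 FPKM in MPTP + MCT-KD, 63.3, 64.3 and 67.9 FPKM in MPTP, and 78.3, 74.2 and 72.9 FPKM in Ctrl. The MPTP sums were below all Ctrl sums, and none of the 8 markers was at 0 in any library. By log2 fold change 4 of the 8 were below Ctrl in MPTP and 4 above MPTP in MPTP + MCT-KD. The contractile genes Acta2, Tagln and Myh11 had -0.79, -1.11 and -0.53 for MPTP over Ctrl. For MPTP + MCT-KD over MPTP they had 0.87, 0.96 and 0.68, with none called by edgeR. Cspg4, a mural marker that went the other way, had 0.22 and -0.16 in these comparisons. The medians of the 8 markers were -0.084 and -0.020. Endothelial markers ran from 86.3 to 89.9 FPKM in MPTP + MCT-KD, 89.5 to 98.9 in MPTP and 84.2 to 87.5 in Ctrl, summed. Astrocyte markers summed to 398 to 442, 373 to 419 and 372 to 388 FPKM in the same groups. By log2 fold change 5 of 7 endothelial and 5 of 6 astrocyte markers were above Ctrl in MPTP. The part of all these cells in the Hspb1 values was not tested.

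Hsp90aa1 codes for the inducible cytosolic Hsp90, which matures kinases and receptors and is itself known to bind heat-shock factor 1. Its FPKM were 391, 368 and 395 in MPTP + MCT-KD, 391, 370 and 386 in MPTP, and 388, 413 and 400 in Ctrl. The groups overlapped and their means lay close together, at 385 ± 14.5 in MPTP + MCT-KD, 382 ± 10.6 in MPTP and 400 ± 12.4 FPKM in Ctrl (SD, n = 3 each). MPTP + MCT-KD over MPTP had a log2 fold change of 0.028 (95% interval -0.073 to 0.13, edgeR adjusted p = 0.918).

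Serpinh1 codes for Hsp47, the collagen chaperone of the endoplasmic reticulum. It stood at 10.6, 9.83 and 10.7 FPKM in MPTP + MCT-KD, 6.57, 9.40 and 9.80 FPKM in MPTP, and 12.2, 12.2 and 13.8 FPKM in Ctrl. The groups were separate, though the highest MPTP value lay just under the lowest of MPTP + MCT-KD. Fold changes on the log2 scale were -0.58 for MPTP over Ctrl (-0.43 without MPTP 1), and 0.30 for MPTP + MCT-KD over MPTP (95% interval 0.044 to 0.56, edgeR adjusted p = 0.630), which was 0.15 without MPTP 1. Meningeal and perivascular fibroblasts are the collagen-producing cells of the brain coverings. By log2 fold change all 10 of their markers were below Ctrl in MPTP and above MPTP in MPTP + MCT-KD. None of these markers was called by edgeR in any comparison. Their summed level was 28.1, 57.8 and 75.3 FPKM in MPTP + MCT-KD, 22.1, 26.3 and 47.3 FPKM in MPTP, and 61.5, 49.1 and 45.7 FPKM in Ctrl, with no marker at 0 in any library. MPTP 1 was lowest in both measures, whereas MPTP + MCT-KD 1 had few fibroblast transcripts and a Serpinh1 level like its group. With the fibroblast level as a covariate the Serpinh1 log2 fold change was -0.53 for MPTP over Ctrl and 0.25 for MPTP + MCT-KD over MPTP. That of Dnajb1 was -0.61 and 0.40. Because the fibroblast markers themselves moved with the groups, this fit cannot fully tell group and fibroblast level apart. The part of fibroblasts in the Serpinh1 and Dnajb1 values was not tested.

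By comparison, MPTP against Ctrl gave negative log2 fold changes for all 10 genes, where 50.4% of all genes tested were negative, and the median was -0.53 against -0.00092 over all genes. In 7 of the 10 every MPTP library was below every Ctrl library, the exceptions being Hspa8, Hsp90aa1 and Hsph1 (4.69% of all genes). Only Dnajb1 and Hspa1b of the 10 were called at an adjusted p under 0.05 by edgeR, and they were the only calls in that fit (0.0134% of genes). These counts restate the contrast on which the genes are assumed to have been chosen. Without Ctrl 3, the library rich in choroid plexus transcripts, MPTP over Ctrl had log2 fold changes of -0.54 for Dnajb1, -1.10 for Hspa1b, -0.64 for Hspb1, -0.53 for Serpinh1 and -0.83 for the summed pair. Neither Dnajb1 nor Hspa1b was called by edgeR then.

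The other comparisons share libraries with that one, so their directions are partly set by the same values. In MPTP + MCT-KD against MPTP, which asks what the diet did on top of the toxin, edgeR called none of the 10 and none of all genes (0%), with 1163 genes at an unadjusted p under 0.05. Of the 10, 5 were higher at an unadjusted p under 0.05 (3.76% of all genes): Dnajb1, Hspa1b, Hspb1, Dnaja1 and Serpinh1. The log2 fold change was positive for 9 of 10 (50.2% of all genes), Hsph1 being the exception, with a median of 0.21 against 0.00056 over all genes. In Dnajb1, Hspb1, Dnaja1 and Serpinh1, 4 of the 10, every MPTP + MCT-KD library was above every MPTP library, as in 4.64% of all genes.

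In MPTP + MCT-KD against Ctrl, edgeR again called none of the 10 and none of all genes (0%), with 1006 genes at an unadjusted p under 0.05, while DESeq2 called 16 genes, none of them among the 10. The log2 fold change was negative for 9 of 10 (50.5% of all genes), with a median of -0.14 against -0.0015. In Dnajb1, Hspa1b and Serpinh1, 3 of the 10, every MPTP + MCT-KD library lay below every Ctrl library (7.78% of all genes). Without Ctrl 3 the log2 fold changes were -0.20 for Dnajb1, -0.49 for Hspa1b and -0.23 for Serpinh1. The 4 genes lower at an unadjusted p under 0.05 (3.36% of all genes) were these and Hspa1a.

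**Figure D3:**
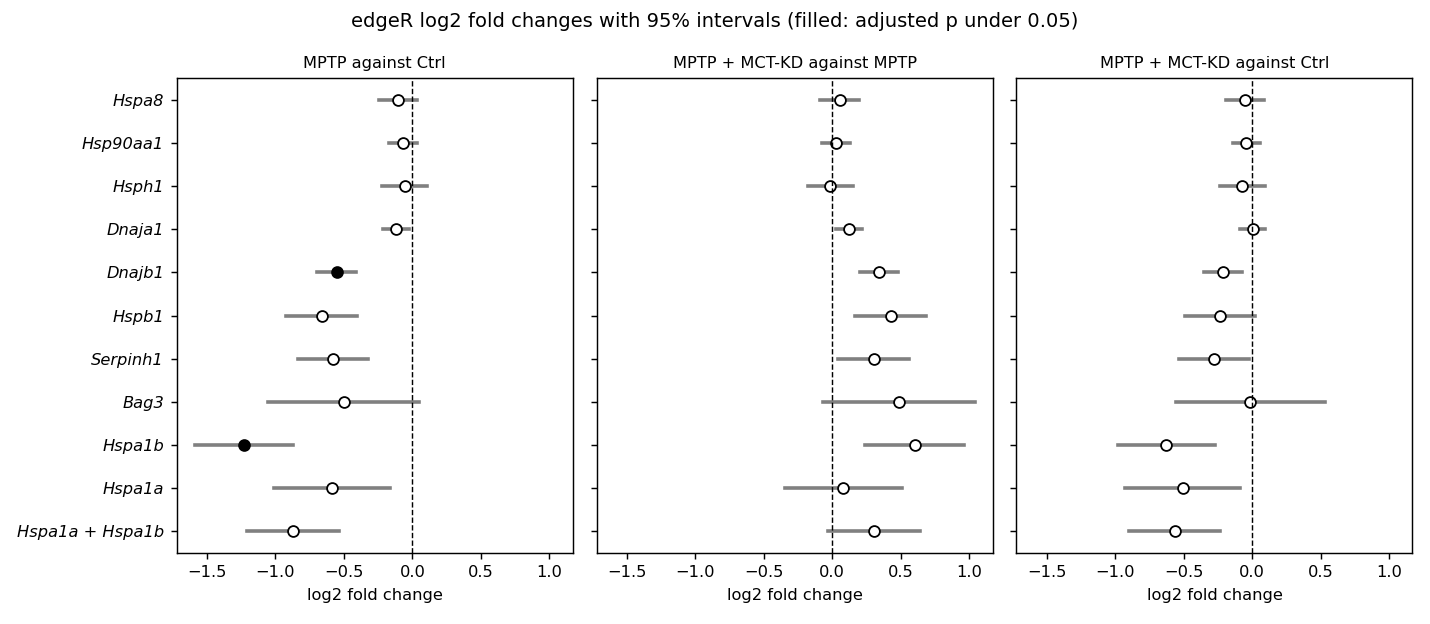
Log2 fold changes of the 10 genes and of the Hspa1a and Hspa1b sum from edgeR, with 95% intervals, in 3 comparisons that share libraries; filled circles have an adjusted p under 0.05 over all genes tested. The filled circles are Dnajb1 at -0.55 and Hspa1b at -1.23 in MPTP against Ctrl.

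Across libraries the 10 genes did not move as 1 block. Relative to the Ctrl mean on the log2 CPM scale (counts per M counts), the median gene lay at -0.091, -0.23 and -0.23 in MPTP + MCT-KD and at -0.58, -0.33 and -0.37 in MPTP. All MPTP medians were thus lower than all MPTP + MCT-KD medians. In MPTP 1, 8 of 10 genes were below the Ctrl mean, and in MPTP 2 and MPTP 3 all 10 were. MPTP + MCT-KD 2 held the widest spread of its group, from -0.99 for Hspa1b to 0.45 for Bag3, and MPTP + MCT-KD 1 stayed between -0.41 and 0.065. The abundant genes Hspa8, Hsp90aa1, Hsph1 and Dnaja1 lay between -0.22 and 0.10 of the Ctrl mean in all libraries, a narrower span than that of any of the 6 genes of lower level.

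**Figure D4:**
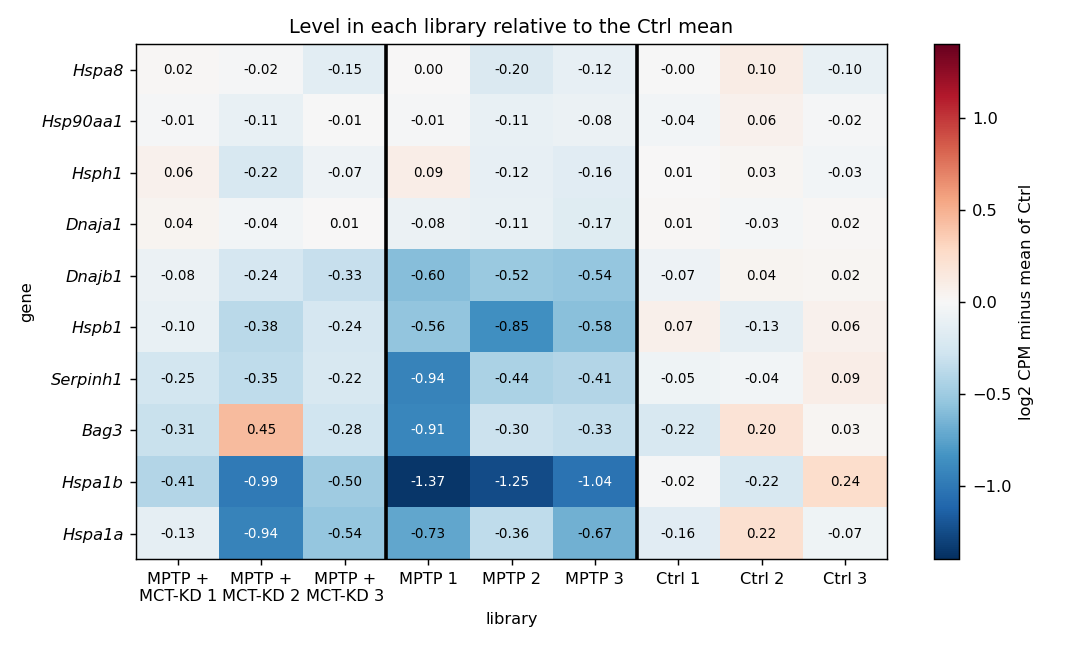
Log2 CPM of each gene minus its mean in Ctrl, by library, with genes in order of level from top to bottom; blue is below and red above the Ctrl mean. The upper 4 genes stay near 0, and the darkest cells are Hspa1b in MPTP, the lowest of them -1.37 in MPTP 1.

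Other genes of the heat-shock response and of protein folding were taken from lists of textbook members. Of 21 other heat-shock genes, 16 were below Ctrl in MPTP (median log2 fold change -0.079) and 15 were above MPTP in MPTP + MCT-KD (median 0.048), and edgeR called none in any comparison. Dnajb4, an Hsp40 close to Dnajb1, averaged 31.2 ± 1.23 FPKM in MPTP + MCT-KD, 28.2 ± 1.95 in MPTP and 34.7 ± 1.96 in Ctrl, with separate groups (edgeR adjusted p = 0.349 for MPTP against Ctrl). Hspb8, a small heat-shock partner of Bag3, averaged 9.09 ± 1.51 FPKM in MPTP + MCT-KD, 7.23 ± 0.968 in MPTP and 9.88 ± 0.985 in Ctrl (SD, n = 3 each; adjusted p = 0.790 for MPTP against Ctrl).

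The heat-shock factors themselves are transcription factors present before stress. Hsf1, the stress-activated factor, averaged 15.6 ± 0.585 FPKM in MPTP + MCT-KD, 16.0 ± 0.804 in MPTP and 15.5 ± 1.49 in Ctrl, with overlapping groups. Hsf2 averaged 7.99 ± 0.369, 7.67 ± 0.522 and 7.61 ± 0.320 FPKM in the same groups. The 4 tested genes of this list had log2 fold changes from -0.11 to 0.061 for MPTP over Ctrl. Activity of these factors is set largely at the protein level, which was not measured.

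Of 15 chaperones of the endoplasmic reticulum, which fold secreted and membrane proteins, all were below Ctrl in MPTP (median -0.10) and 14 of 15 were above MPTP in MPTP + MCT-KD (median 0.14), with none called by edgeR. Hspa5, the Hsp70 of that compartment, averaged 100 ± 12 FPKM in MPTP + MCT-KD, 88.3 ± 7.38 in MPTP and 115 ± 5.12 in Ctrl (adjusted p = 0.172 for MPTP against Ctrl and 0.587 for MPTP + MCT-KD against MPTP). Of 18 cytosolic co-chaperones 13 were below Ctrl in MPTP (median -0.055), and all 7 tested subunits of the chaperonin TRiC, which folds actin and tubulin, were below it as well (median -0.065). Mitochondrial chaperones were spread about 0, with 3 of 8 below Ctrl in MPTP (median 0.0093) and 6 of 8 below MPTP in MPTP + MCT-KD (median -0.044). Immediate early genes, which follow neuronal activity and handling, also differed beside the chaperones: 12 of 14 tested were below Ctrl in MPTP (median -0.29) and 12 of 14 above MPTP in MPTP + MCT-KD (median 0.28), none called, and their part in the result was not tested. The cold-inducible RNA-binding gene Cirbp averaged 29.9 ± 2.03 FPKM in MPTP + MCT-KD, 32.0 ± 4.89 in MPTP and 29.8 ± 2.93 in Ctrl, with overlapping groups. Rbm3, the other gene of that list, had log2 fold changes of -0.18 for MPTP over Ctrl and 0.26 for MPTP + MCT-KD over MPTP, neither called by edgeR, and its groups overlapped too.

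**Figure D5:**
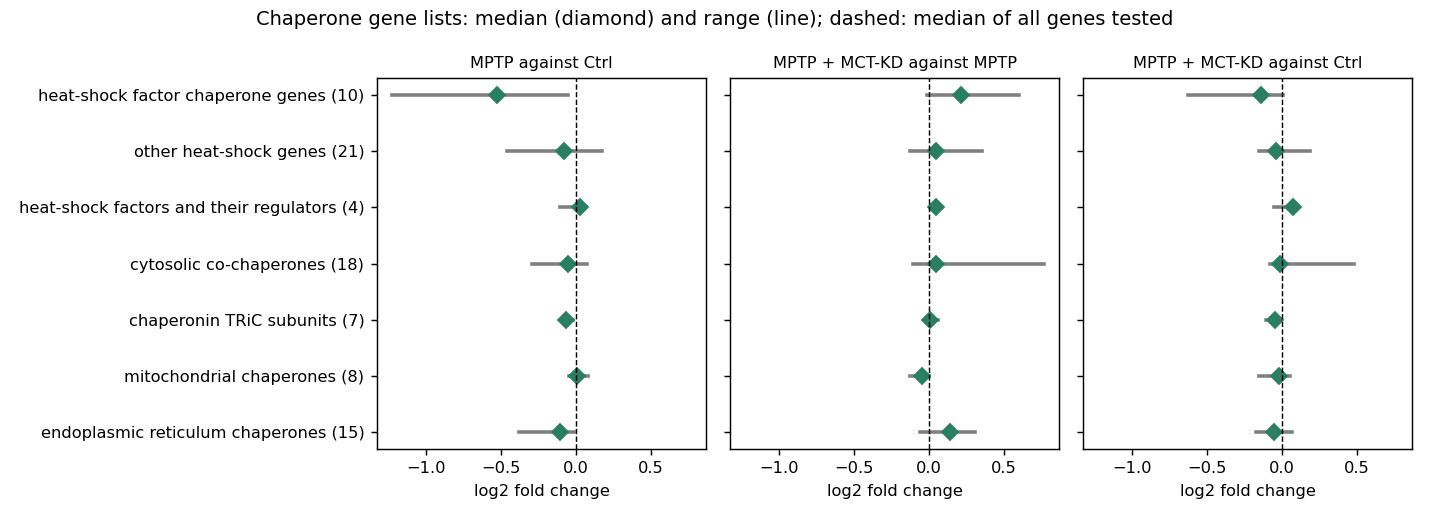
Median (diamond) and range (line) of edgeR log2 fold changes in the 10 genes and in 6 other chaperone and regulator lists, with the number tested in brackets; the dashed line is the median of all genes tested. The 10 genes, assumed to be chosen on the first comparison, have medians of -0.53, 0.21 and -0.14 in the 3 panels. The medians of the other 6 lists lie nearer to 0. The range of the cytosolic co-chaperones reaches 0.77 in MPTP + MCT-KD against MPTP and 0.48 in MPTP + MCT-KD against Ctrl, above the highest of the 10 genes.

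The genes whose log2 CPM most resembled Dnajb1 over the 9 libraries, among 12793 annotated genes with a mean of at least 1 FPKM, were Hspa5 (Pearson r = 0.96, Spearman rho = 0.93), Gigyf2 (r = 0.94), Stx12 (r = 0.94), P4ha1 (r = 0.94) and Cacybp (r = 0.93). For the Hspa1a and Hspa1b sum they were Slc5a3 (r = 0.97, rho = 0.97), Aifm2 (r = 0.96), Hspa5 (r = 0.95), Dusp28 (r = 0.92) and P4ha1 (r = 0.91). They were picked as the highest of all candidates, and the 9 points share the difference between groups, so no p is given. Without the 2 libraries farthest from the median, r lay between 0.84 and 0.97 for these 10 pairs. Within groups, as deviations from the group means, r was 0.79 between Dnajb1 and Hspa5, 0.35 between Dnajb1 and P4ha1, and 0.88 between the sum and Slc5a3. Hspa5 and P4ha1 were named for both.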

How the data were processed

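RNA sequencing was done on 9 libraries of substantia nigra pars compacta, grouped by their treatment labels. The NEBNext Ultra RNA kit was used, per the labels' protocols. The authors deposited 1 table, whose columns per the file headers are read counts and FPKM values by library. The genome build was GRCm38 (mm10), per the submitters' processing notes; the sources used here do not give the aligner, the counter, the annotation or the strand, so reads of overlapping, antisense or near-identical genes cannot be separated. Lines naming no gene (10) were not used, and 27 symbols turned into dates were restored through their identifiers.

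The 10 genes and all lists were chosen with earlier results of these data known. The counts of all 9 libraries were fitted in 1 model by edgeR 4.0.16 under R 4.3.3 (TMM scaling, robust quasi-likelihood test), over the 14949 genes averaging 0.5 FPKM or more. Adjusted p-values are Benjamini-Hochberg values over these genes, called under 0.05, and intervals are 95%. The sum of Hspa1a and Hspa1b replaced both rows in a second fit. CPM used TMM-scaled library sizes and a prior count of 2. The common biological coefficient of variation was 0.134. The scripts were tested on simulated data. Alternatives were RLE scaling, DESeq2 1.42.0, limma 3.58.1 on log2(FPKM + 0.1) and log2(FPKM + 1), no filter, no robust moderation, a replicate block, 2 marker covariates, removal of both Ctrl 3 and MPTP 1, and removal of each library. Same-numbered libraries of MPTP + MCT-KD and MPTP deviated together (correlations 0.107 to 0.182, all over 0.1), so the numbers may mark pairs there, from the data alone. Those of MPTP and Ctrl (-0.151 to 0.0472) and of MPTP + MCT-KD and Ctrl (-0.0073 to 0.0783) did not. Differently numbered libraries of different groups reached 0.186, so values of this size also occurred without a shared number. The main fit left the numbers out, so its intervals and p-values are unpaired. Only the replicate block used them, and it did so for all 9 libraries, Ctrl included.

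Genes named besides the 10 were at most 4 per list, those with the smallest p in any comparison, and the 5 genes most like Dnajb1 and the sum. Gene coordinates are those of GENCODE M21 on GRCm38. Promoter windows are from RefSeq on GRCm38.p6, and were found for 8 of the 10 genes.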

Additional observations from a re-analysis of the deposited data

How the results depend on the processing

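Of the 10 genes, the number called in MPTP against Ctrl was 2 with edgeR, and also 2 with RLE scaling, no filter or the replicate block. It was 4 with DESeq2, 1 with the fibroblast covariate, and 0 with either limma fit, without robust moderation, with the choroid plexus covariate or with both Ctrl 3 and MPTP 1 left out. Leaving out 1 library gave 0 to 2. Without any 1 of Ctrl 2, Ctrl 3, MPTP 2 and MPTP 3 Dnajb1 was no longer called, at log2 fold changes of -0.57 to -0.53, and Hspa1b lost it without any library other than MPTP + MCT-KD 1 or 2, at -1.33 to -1.10. In MPTP + MCT-KD against MPTP the count was 0, 1 with DESeq2 (Dnajb1) and 0 in every removal of 1 library; in MPTP + MCT-KD against Ctrl it was 0 in all of these settings. The summed pair in MPTP against Ctrl was at -0.87 with edgeR and -0.87 with DESeq2, which called it, and at -0.93 to -0.80 with 1 library left out; edgeR called it without MPTP + MCT-KD 1 or 2. The replicate block gave 0.34 for Dnajb1 in MPTP + MCT-KD against MPTP (adjusted p = 0.380) and changed no call among the 10 genes or their sum. Over all genes DESeq2 called 14 in MPTP against Ctrl, 19 in MPTP + MCT-KD against MPTP and 16 in MPTP + MCT-KD against Ctrl, where edgeR called 2, 0 and 0 and limma 0 each (856, 1164 and 995 at an unadjusted p under 0.05), and the block gave 3, 0 and 5. Signs turned only in uncalled values. For MPTP + MCT-KD over Ctrl, Bag3 ranged from -0.30 to 0.12 with 1 library left out, and was at 0.091 without Ctrl 2, 0.12 without MPTP + MCT-KD 1 and 0.11 without MPTP + MCT-KD 3. Dnaja1 was at -0.12 in both limma fits, -0.0016 without the filter, -0.011 without Ctrl 2 and -0.014 without MPTP + MCT-KD 1 (-0.014 to 0.028 with 1 library left out). Hspa8 was at 0.00016 without Ctrl 2 (-0.097 to 0.00016 with 1 left out) and Hsph1 at 0.0030 without MPTP + MCT-KD 2 (-0.14 to 0.0030). For MPTP + MCT-KD over MPTP, Hspa1a was at -0.15 without MPTP + MCT-KD 1 (-0.15 to 0.26 with 1 left out), and Hsph1 at 0.066 with the fibroblast covariate, 0.067 with both Ctrl 3 and MPTP 1 left out, 0.068 without MPTP 1 and 0.057 without MPTP + MCT-KD 2 (-0.086 to 0.068). The cause of these shifts was not tested.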
